A study of Homo sapiens with 12 samples.

Results

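The 44 genes described here are MYC and genes whose products make ribosomes. They were taken from a list of gene symbols that was matched to the Ensembl identifiers of the deposited gene counts, and all 44 were found among the 60671 genes counted and passed the filter on low counts. The cells were BJ-5ta, a line of human skin fibroblasts immortalized with telomerase. Wild-type cells were compared with ΔLEO1 cells, in which CRISPR/Cas9 had been directed at the start of the LEO1 gene, and the ΔLEO1 cells were a single clone. Each genotype was sampled in medium with 10% serum and after 10 days in 0.1% serum, with 3 libraries in each of the 4 groups. ERCC transcripts, which are synthetic RNAs, had been added to the RNA of every library. The sources used here do not say whether the 3 libraries of a group came from separate cultures, so the p-values measure only the spread between these libraries. LEO1 is a subunit of the PAF1 complex, which accompanies RNA polymerase II during elongation.

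Ribosomes are assembled in the nucleolus. RNA polymerase I transcribes a long precursor RNA there, small nucleolar RNA-protein particles modify it, and separate sets of assembly factors cut and fold it into the small and the large subunit. MYC, a transcription factor whose gene responds quickly to serum, binds the E-box CACGTG and is known to raise the expression of many genes at each of these steps.

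Gene counts per library ran from 26240632 to 45315560, and ERCC counts made up 0.625% to 3.24% of a library. LEO1 had 682 to 1001 counts in each wild-type library and 23 to 55 in each ΔLEO1 library. The fibroblast markers were high throughout, with a median of 24294 CPM (counts scaled to a common library total) for COL1A1, and no epithelial or endothelial marker was above 1.47 CPM. Of the blood markers, PTPRC ranged from 0.211 to 7.25 CPM and was higher in ΔLEO1 than in wild-type cells on the gene scale, by log2 3.87 (adjusted p = 0.000184) with 10% serum and by 3.91 (adjusted p = 0.0002) with 0.1% serum. CD3E and LYZ were at or under 0.0587 CPM. Libraries 3, 6, 9 and 12, the last of each group, stood apart from the other libraries of their groups, and libraries 3 and 9 went against their serum labels in the level of 12 genes of cycling cells. The median of these genes, as log2(CPM + 1) less each gene's mean over the 12 libraries, was 0.57 and 0.67 in libraries 1 and 2. It was -1.06 in library 3, although all 3 were labelled 10% serum. It was -0.68 and -0.81 in libraries 7 and 8 of wild-type cells in 0.1% serum but 0.03 in library 9. In ΔLEO1 cells it was 0.74, 0.91 and -0.02 in 10% serum (libraries 4, 5 and 6) and -0.17, -0.28 and 0.03 in 0.1% serum (libraries 10, 11 and 12). Results are therefore given with and without these 4 libraries where they change.

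Levels are given on either of 2 scales. On the ERCC scale a library's counts are divided by its ERCC counts, so that a fall of all RNA per spike-in is kept. On the gene scale they are CPM of the gene counts with TMM factors, which set each gene against the others of its library. The ratio of gene counts to ERCC counts, by which the scales differ, varied between groups and within them. Taken relative to library 1, it was 0.830 and 0.545 in libraries 2 and 3, 1.26, 0.935 and 0.827 in libraries 4, 5 and 6, 0.392, 0.509 and 0.310 in libraries 7, 8 and 9, and 0.419, 0.247 and 0.784 in libraries 10, 11 and 12. The median log2 fold change of all 13236 tested genes on the ERCC scale was accordingly -0.97 for 0.1% against 10% serum in wild-type cells, -1.05 in ΔLEO1 cells, 0.35 for ΔLEO1 against wild type in 10% serum and 0.27 in 0.1% serum. In bulk RNA, fewer cells, less RNA per cell and a smaller amount of RNA taken into a library cannot be told apart. A gene is said to have risen or fallen where edgeR's quasi-likelihood test gave it an adjusted p (Benjamini-Hochberg) below 0.05.

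Per kilobase of exon, the median levels of the members ran from 0.299 CPM for NOP2 to 154 CPM for NPM1, with NCL at 92.0, NOP10 at 66.8, FBL at 30.02, NOP56 at 17.6, MYC at 15.2 and BOP1 at 8.45 CPM per kilobase. Some reads could not be assigned to a member with certainty. NOP2 had only 29 to 80 counts per library, and 54.4% of its exon bases lie in another gene annotated on the same strand. The same holds for 59.8% of the exon bases of PPAN and 34.8% of those of LTV1. For HEATR1, NHP2 and NIP7, 23.2%, 27.4% and 20.2% of the exon bases lie in genes on the opposite strand, and the strand setting of the counting was not given in the sources used here.

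Promoters are shown because MYC is 1 of the members and its binding motif is short enough to be read. RefSeq promoters on GRCh38.p14, from 250 bases before to 50 bases after the annotated start, were found for 36 of the 44 genes. The 8 others were MYC, BOP1, RRS1, NOLC1, NOP58, RRP12, TCOF1 and POLR1E. The motif CACGTG, which reads the same on both strands, was in 14 of the 36 promoters (38.9%), in 1029 of 10210 promoters of tested genes (10.1%), in 2030 of all 27305 promoters (7.43%) and in 33 of 117 promoters of the other ribosome biogenesis genes listed (28.2%). The sequences below run from 60 bases before to 30 bases after the start of 5 members that hold the motif, in capitals, near the start, and of NOP56, the member with the largest difference between genotypes, where it is not among these letters.
FBL, chr19:39846350-39846439, minus strand: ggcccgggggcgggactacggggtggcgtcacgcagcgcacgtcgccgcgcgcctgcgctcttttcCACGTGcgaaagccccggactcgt
NAT10, chr11:34105569-34105658, plus strand: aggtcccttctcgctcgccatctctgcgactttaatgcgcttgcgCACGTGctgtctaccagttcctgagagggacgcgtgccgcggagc
NOP10, chr15:34343107-34343196, minus strand: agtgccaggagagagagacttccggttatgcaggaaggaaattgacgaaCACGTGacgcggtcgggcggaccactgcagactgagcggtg
PES1, chr22:30591881-30591970, minus strand: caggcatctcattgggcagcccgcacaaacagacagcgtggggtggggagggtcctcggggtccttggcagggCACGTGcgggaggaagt
UTP20, chr12:101280045-101280134, plus strand: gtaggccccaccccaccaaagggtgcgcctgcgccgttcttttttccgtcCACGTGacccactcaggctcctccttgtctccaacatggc
NOP56, chr20:2652572-2652661, plus strand: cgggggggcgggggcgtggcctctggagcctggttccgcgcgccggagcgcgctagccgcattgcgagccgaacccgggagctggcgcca

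The motif was also in the promoters of BYSL, LTV1, MYBBP1A, NOP14, NOP2, PNO1, RRP9, UTP4 and WDR43. It was not among the letters of the promoters of NCL, NPM1, UBTF and GAR1. For UTP4, GAR1, PPAN and WDR3 the last bases of the RefSeq promoter were not found in the GENCODE transcripts of the gene. No binding was measured, and a match is only a match of letters.

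**Figure D1:**
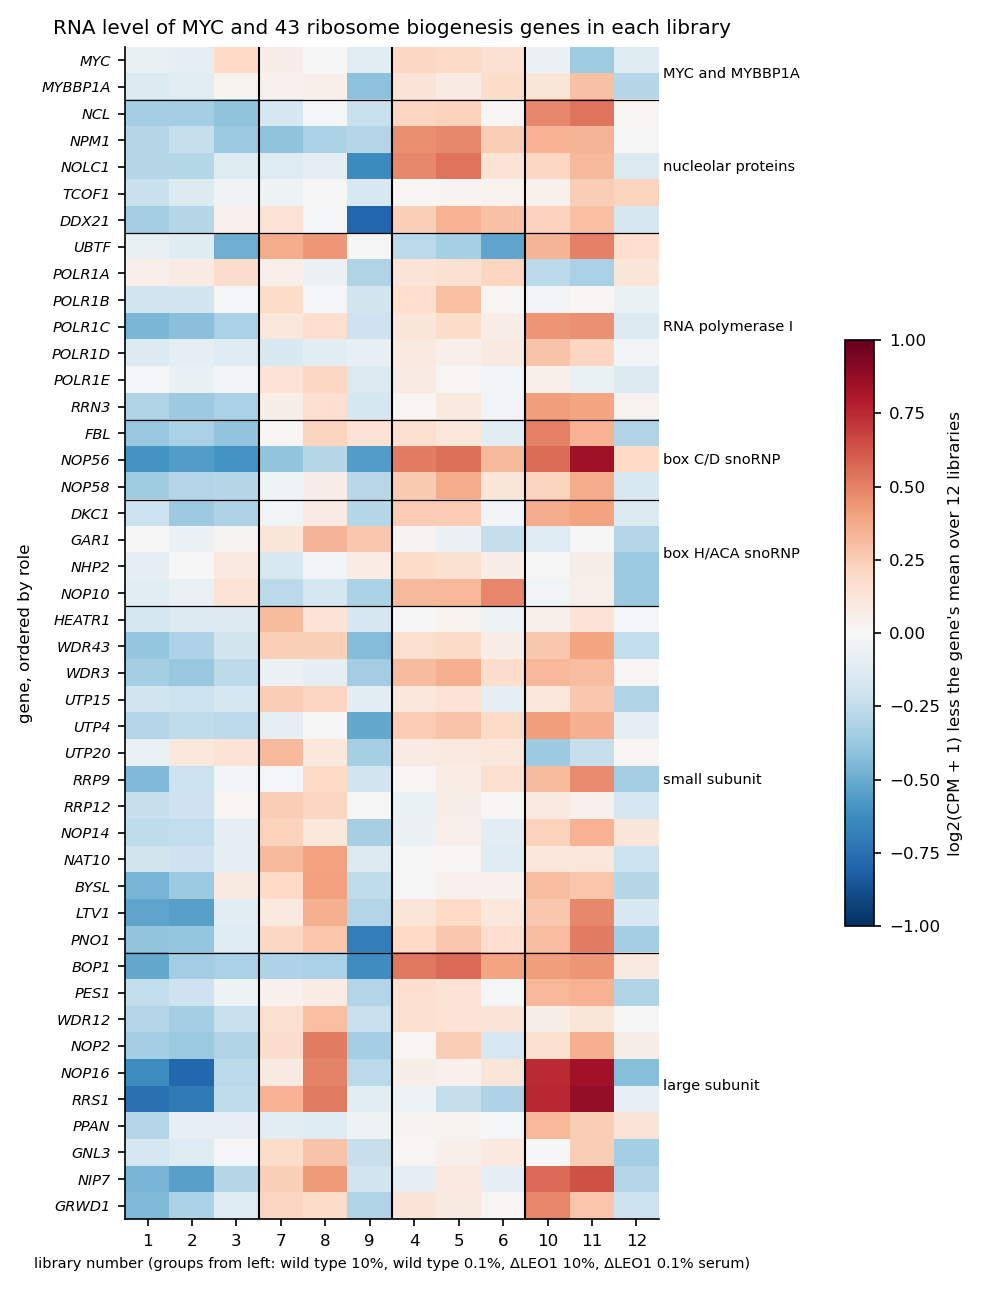
Level of each of the 44 genes (rows, ordered by role) in each of the 12 libraries (columns, by group), as log2(CPM + 1) less the mean of the gene. NPM1 and NOP56 are higher in all 6 ΔLEO1 than in all 6 wild-type libraries, and most assembly factors are lower in libraries 9 and 12 than in the other libraries of their groups.

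The first question was whether ΔLEO1 cells growing in 10% serum differed from wild-type cells. Relative to the other genes, 15 of the 44 members (34.1%) were higher in ΔLEO1 cells, against 17.9% of all tested genes, and 0 were lower, against 21.4%. The median log2 fold change of the members was 0.37, and 42 were positive. The groups did not overlap for 32 members, all higher in ΔLEO1 cells, against 29.2% of all tested genes that were higher and 30.1% that were lower without overlap. In ERCC-scaled counts all 44 fold changes were positive with a median of 0.74, but only NOP56 passed the test, against 3.81% of all tested genes called higher, and 0 were lower, against 4.20%. There 25 members were higher and 0 lower without overlap, against 23.7% and 6.94%. Without libraries 3, 6, 9 and 12, 37 members were higher on the gene scale, against 30.3% of tested genes, and 2 on the ERCC scale, against 5.47%. The gene-scale count was 10 without library 1 (13.0% of all tested genes) or 5 (13.2%) and 9 without library 2 (12.8%).

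NOP56 had the largest fold change between genotypes among the members in both sera on the gene scale. This core protein of the box C/D particles, which guide ribose methylation of the precursor RNA, had 63.4, 65.2 and 63.7 CPM in wild-type cells in 10% serum and 138, 142 and 121 CPM in ΔLEO1 cells. In 0.1% serum it had 73.3, 79.2 and 65.2 CPM in wild-type and 143, 175 and 111 CPM in ΔLEO1 cells. Every ΔLEO1 library was thus above every wild-type library in both sera. The level was 2.09-fold higher in 10% serum (log2 1.06 ± 0.14 SE, adjusted p = 0.000133) and 1.97-fold higher in 0.1% serum (0.98 ± 0.14, adjusted p = 0.000326). In ERCC-scaled counts NOP56 had 3829, 3265 and 2095 in wild-type and 10467, 8029 and 6042 in ΔLEO1 cells in 10% serum. That was 2.67-fold higher (1.42 ± 0.48, adjusted p = 0.0418), a call that was lost in every fit that left out 1 library other than 9, 11 or 12. NOP58, its partner in the particle, was 1.49-fold higher on the gene scale in 10% serum (adjusted p = 0.00554). The methyltransferase FBL had 47.8, 49.6 and 47.2 CPM in wild-type and 69.7, 67.6 and 57.7 CPM in ΔLEO1 cells, which do not overlap, yet it did not pass the test (0.43 ± 0.17, adjusted p = 0.0604).

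NPM1, a histone and ribosome chaperone of the nucleolus, had 523, 542 and 493 CPM in wild-type and 881, 888 and 754 CPM in ΔLEO1 cells in 10% serum, and 482, 512 and 521 against 811, 808 and 638 CPM in 0.1% serum. Here too the genotypes did not overlap in either serum. The level was 1.62-fold higher in 10% serum (0.70 ± 0.11, adjusted p = 0.000506) and 1.49-fold higher in 0.1% serum (0.58 ± 0.11, adjusted p = 0.00243). About 17.0% of the 58-base stretches of NPM1 also occur in other genes. NCL, which binds the precursor RNA, had 505, 505 and 483 CPM in wild-type and 741, 748 and 643 CPM in ΔLEO1 cells in 10% serum, and 567, 632 and 546 against 889, 925 and 643 CPM in 0.1% serum. It was 1.43-fold higher in 10% (0.51 ± 0.13, adjusted p = 0.00964) and 1.41-fold higher in 0.1% serum (0.49 ± 0.13, adjusted p = 0.0147), the latter not past the threshold without library 10 or 11. NOLC1, a chaperone of small nucleolar particles, had 80.3, 80.5 and 90.3 CPM in wild-type and 137, 143 and 108 CPM in ΔLEO1 cells in 10% serum (1.55-fold, 0.63 ± 0.17, adjusted p = 0.0108), and 89.4, 92.1 and 62.5 against 114, 123 and 88.6 CPM in 0.1% serum, where the groups overlapped. TCOF1, a nucleolar protein that acts with RNA polymerase I, was higher in ΔLEO1 cells in 0.1% serum (0.25, adjusted p = 0.0422), in 3 of the 12 fits that each left out 1 library. It differed by 0.16 in 10% serum, and the difference between sera did not pass (adjusted p = 0.836). The helicase DDX21 passed in neither serum.

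Among the 10 factors of the large subunit, BOP1 stood out. This subunit of the PeBoW complex had 23.3, 26.2 and 26.6 CPM in wild-type and 48.9, 50.4 and 44.5 CPM in ΔLEO1 cells in 10% serum, and 27.0, 26.7 and 21.6 against 45.2, 46.0 and 35.8 CPM in 0.1% serum. All 6 ΔLEO1 libraries lay above all 6 wild-type libraries. BOP1 was 1.89-fold higher in 10% serum (0.92 ± 0.12, adjusted p = 0.000121) and 1.69-fold higher in 0.1% serum (0.76 ± 0.12, adjusted p = 0.000672). Its ERCC-scale difference in 10% serum was 1.29 ± 0.49 and did not pass (adjusted p = 0.0907). The other members of the complex were WDR12, which was 1.36-fold higher in 10% serum (adjusted p = 0.0116), and PES1, whose difference of 0.26 did not pass (adjusted p = 0.215). PPAN was higher in ΔLEO1 cells in 0.1% serum (0.40, adjusted p = 0.0302), though not without library 7, 8, 10 or 11. NOP2, a methyltransferase of the large subunit RNA, had 0.842, 0.813 and 0.897 CPM in wild-type and 1.37, 1.79 and 1.095 CPM in ΔLEO1 cells in 10% serum, which do not overlap (0.74 ± 0.33, adjusted p = 0.0966). In 0.1% serum it had 1.64, 2.34 and 0.846 against 1.61, 1.997 and 1.44 CPM.

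Of the 13 factors of the small subunit, 3 (23.1%) were higher in 10% serum, against 17.9% of all tested genes. WDR3 was 1.54-fold higher (0.62 ± 0.11, adjusted p = 0.000869), UTP4, which acts with RNA polymerase I on the nascent precursor, 1.44-fold (adjusted p = 0.0143) and LTV1, an export factor, 1.47-fold (adjusted p = 0.0457). WDR3 and UTP4 were also higher in 0.1% serum, by 0.40 (adjusted p = 0.0163) and 0.44 (adjusted p = 0.0379). NAT10, the RNA acetyltransferase, had 34.1, 33.4 and 36.4 CPM in wild-type and 38.9, 39.1 and 35.4 CPM in ΔLEO1 cells in 10% serum, with overlap (0.13 ± 0.14, adjusted p = 0.495).

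The 4 proteins of the box H/ACA particles, which guide pseudouridylation, did not move together. The pseudouridine synthase DKC1 had 45.3, 40.8 and 42.2 CPM in wild-type and 63.0, 63.0 and 51.6 CPM in ΔLEO1 cells in 10% serum (0.47 ± 0.15, adjusted p = 0.0267). It had 51.8, 55.7 and 43.03 against 68.4, 69.9 and 47.6 CPM in 0.1% serum, where the groups overlapped (0.30 ± 0.15, adjusted p = 0.144). NOP10 was 1.32-fold higher in 10% serum (adjusted p = 0.0192), though not without library 1, 2 or 6. GAR1 had 16.8, 16.1 and 17.1 CPM in wild-type and 17.2, 16.1 and 14.1 CPM in ΔLEO1 cells in 10% serum, which overlap. In 0.1% serum it had 18.4, 21.5 and 20.5 against 15.3, 16.8 and 13.5 CPM, without overlap, and it was the only member that was lower (-0.40 ± 0.11, adjusted p = 0.0164), but without library 8 it did not pass. NHP2 passed in neither serum.

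Among the RNA polymerase I genes, POLR1B, POLR1C and RRN3 were higher in ΔLEO1 cells in 10% serum on the gene scale. UBTF had a lower mean in ΔLEO1 than in wild-type cells there, 117 against 131 CPM, with overlap, and was not called. POLR1B, the second largest subunit, had 20.4, 20.5 and 23.1 CPM in wild-type and 26.5, 29.1 and 23.7 CPM in ΔLEO1 cells in 10% serum (0.31 ± 0.11, adjusted p = 0.0479). POLR1C, a subunit shared with RNA polymerase III, was 1.48-fold higher (adjusted p = 0.0170). The initiation factor RRN3 had 30.3, 29.2 and 29.9 CPM in wild-type and 38.2, 40.3 and 37.0 CPM in ΔLEO1 cells in 10% serum, without overlap (0.37 ± 0.12, adjusted p = 0.0256), and 39.3, 42.4 and 33.3 against 50.7, 49.9 and 38.7 CPM in 0.1% serum, with overlap (0.28 ± 0.12, adjusted p = 0.0890). About 23.8% of the 58-base stretches of RRN3 occur in other genes. The largest subunit, POLR1A, had 74.6, 76.4 and 81.8 CPM in wild-type and 79.0, 80.1 and 83.7 CPM in ΔLEO1 cells in 10% serum (0.06 ± 0.12, adjusted p = 0.720). POLR1D was the member of this set that was higher in ΔLEO1 cells in 0.1% serum (0.28, adjusted p = 0.0238), and this was lost without library 7, 8, 10 or 11.

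**Figure D2:**
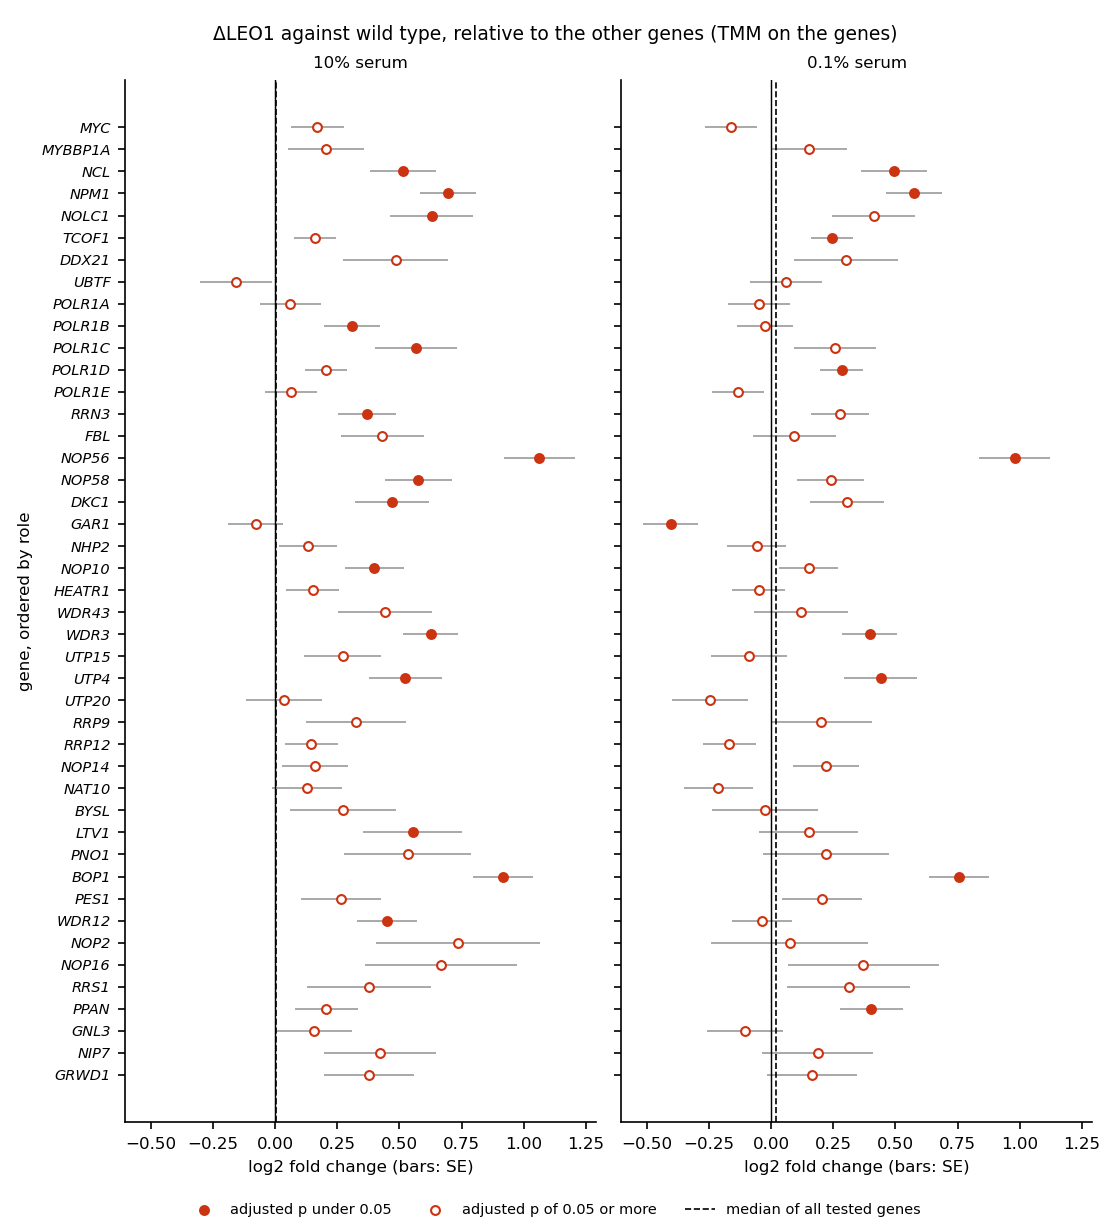
Log2 fold change of ΔLEO1 against wild type for each of the 44 genes on the gene scale, in 10% serum (left) and 0.1% serum (right). Points show the edgeR estimate and bars its SE, filled points have an adjusted p under 0.05, and the dashed line is the median of all tested genes. In 10% serum 42 of the 44 points lie above 0 and in 0.1% serum 30, with NOP56 farthest right in both.

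The same comparison was made in 0.1% serum. On the gene scale 9 members were higher in ΔLEO1 cells, against 15.1% of all tested genes, and 1 was lower, against 17.3%. The median was 0.18, beside 0.02 for all tested genes, and the groups did not overlap for 8 members that were higher (20.5% of all tested genes) and 1 that was lower (21.7%). By ERCC counts 0 members were called in either direction, against 3.49% higher and 3.41% lower, and 1 member had a p under 0.05 before adjustment. There NOP56 was higher without overlap, against 4.64% of all tested genes, and 0 members were lower, against 4.83%. DESeq2 and the likelihood ratio test also called 0. The members' median on the ERCC scale was 0.27, the same as for all tested genes, and -0.27 without libraries 3, 6, 9 and 12, when that of all tested genes was -0.42. The gene-scale count of higher members was 5 without library 7 (11.5% of all tested genes) and 4 without library 10 (11.7%). It was 3 without library 11 (11.7%) and 17 without library 12 (18.1%).

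Serum deprivation was examined next, first in wild-type cells. On the ERCC scale 0 of the 44 members fell, against 27.0% of all tested genes, and 0 rose, against 0.831%. Before adjustment 7 had a p under 0.05. DESeq2 called 7 lower, against 43.5% of all tested genes, and the likelihood ratio test 2, against 36.1%. The fold changes were nonetheless negative for 42 members, with a median of -0.71 beside -0.97 for all tested genes, and 40 of the 44 lay above the latter. They ran from -1.18 for NOP10 to 0.06 for NOP2, and the groups did not overlap for 14 members, all lower, against 53.4% of all tested genes lower and 1.16% higher. The sign of the median turned on the gene scale, to 0.23 beside 0.0045 for all tested genes, and 35 fold changes were positive. The 7 members called higher in 0.1% serum were a share close to the 15.5% of all tested genes. None were lower, against 16.1%. Without overlap 12 were higher, close to the 24.7% of all tested genes, and 1 was lower, against 23.7%. Without libraries 3, 6, 9 and 12, 34 members were higher on the gene scale, against 26.9%, and 8 lower on the ERCC scale, against 63.1%. The gene-scale count was 0 without library 7 or 8, 1 without library 1 or 2, 2 to 4 without library 3, 4 or 5, 15 without library 9 and 12 without library 12. The share of all tested genes that were higher in these fits ran from 10.1% without library 8 to 19.0% without library 12. The ERCC-scale count of members that fell was 3 without library 3, when 46.6% of all tested genes fell. It was 12 without library 11 (54.7%) and 13 without library 12 (61.2%).

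The 7 were UBTF, RRN3, POLR1C, FBL, RRP12, WDR12 and RRS1. UBTF, the factor that binds and opens ribosomal DNA, had 145, 140.1 and 108 CPM in wild-type cells in 10% serum and 197, 207 and 153 CPM in 0.1% serum. In ΔLEO1 cells it had 126, 121 and 106 CPM in 10% serum and 192, 216 and 171 CPM in 0.1% serum. All 6 libraries in 0.1% serum were above all 6 in 10% serum. The level was 1.42-fold higher in wild-type (0.50 ± 0.15, adjusted p = 0.0228) and 1.64-fold higher in ΔLEO1 cells (0.72 ± 0.15, adjusted p = 0.00434), although the wild-type call was lost without library 3, 7 or 8. UBTF changed on the ERCC scale by -0.48 (adjusted p = 0.361) and -0.42 (adjusted p = 0.413). RRS1, an assembly factor of the large subunit, had 11.3, 11.56 and 16.2 CPM against 25.2, 28.4 and 17.97 CPM in wild-type cells (1.83-fold, 0.87 ± 0.25, adjusted p = 0.0217) and 18.8, 16.4 and 15.6 against 33.7, 36.7 and 18.4 CPM in ΔLEO1 cells, where library 12 overlapped the other group (1.75-fold, 0.81 ± 0.25, adjusted p = 0.0324). It lost its call without library 1, 2, 7 or 8 in wild-type and without library 4, 5, 6, 10 or 11 in ΔLEO1 cells. FBL was at 62.9, 72.9 and 68.9 CPM in 0.1% serum in wild-type cells, above its 3 libraries in 10% serum (1.42-fold, 0.50 ± 0.17, adjusted p = 0.0404), and at 88.7, 79.4 and 50.4 CPM in ΔLEO1 cells, which overlapped 10% serum (0.16 ± 0.17, adjusted p = 0.494). In wild-type cells FBL passed in 4 of 12 fits that each left out 1 library, RRN3 in 5, and POLR1C and RRP12 in 3.

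In ΔLEO1 cells 21 members fell on the ERCC scale, against 36.4% of all tested genes, and 0 rose, against 0.793%. All 44 fold changes were negative. The median was -1.13, beside -1.05 for all tested genes, and the groups did not overlap for 38 members, all lower, against 50.9% of all tested genes lower and 0.846% higher. Relative to the other genes only NOP10 and MYC fell, against 12.1%, and UBTF and RRS1 rose, against 15.5%, with a median of 0.03. Without overlap 4 were higher and 6 lower, against 22.2% and 21.0%. The ERCC-scale count was 0 without library 4 (4.51% of all tested genes) or 10 (3.06%). It was 1 without library 5 (9.98%) or 11 (6.19%) and 5 without library 2 (17.9%) or 7 (16.8%). It was 41 without library 12 (87.4%) and 43 without libraries 3, 6, 9 and 12, when 91.3% of all tested genes fell. The 21 were 3 of the 5 nucleolar proteins, 2 of the 7 genes of RNA polymerase I, 1 of the 3 box C/D proteins, 3 of the 4 box H/ACA proteins, 6 of the 13 small subunit and 4 of the 10 large subunit factors, and both regulators, MYC and MYBBP1A.

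NOP10, the smallest protein of the box H/ACA particle, fell most. It had 48.1, 48.3 and 54.0 CPM in ΔLEO1 cells in 10% serum and 37.5, 39.7 and 29.3 CPM in 0.1% serum, without overlap (-0.50 ± 0.12 on the gene scale, adjusted p = 0.00988). In ERCC-scaled counts it went from 3649, 2729.6 and 2696 to 948, 592 and 1388 (-1.63 ± 0.49, adjusted p = 0.0120), which did not pass without library 4 or 10. In wild-type cells it went from 35.3, 36.5 and 42.4 to 31.6, 33.8 and 30.5 CPM, which did not overlap but did not pass (-0.25 ± 0.12, adjusted p = 0.128). NOLC1 followed in ΔLEO1 cells on the ERCC scale (-1.43 ± 0.48, adjusted p = 0.0226), but not relative to the other genes (-0.26, adjusted p = 0.271). POLR1A went from 5997, 4524 and 4179 to 1507, 855 and 3713 ERCC-scaled counts and fell by 1.28 on the log2 scale (adjusted p = 0.0349). POLR1B went from 2010.3, 1642 and 1182 to 582, 355 and 1058 ERCC-scaled counts and also fell by 1.28 (adjusted p = 0.0376). Relative to the other genes neither passed, with 59.6, 57.3 and 78.4 CPM for POLR1A and 23.0, 23.8 and 22.3 CPM for POLR1B in ΔLEO1 cells in 0.1% serum. Wild-type POLR1A had 74.7, 69.1 and 58.4 CPM in that serum and POLR1B 26.7, 23.1 and 20.5 CPM. NAT10 had 48.9, 51.7 and 35.0 CPM in wild-type and 41.7, 42.0 and 33.4 CPM in ΔLEO1 cells in 0.1% serum, and passed neither serum comparison on either scale.

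**Figure D3:**
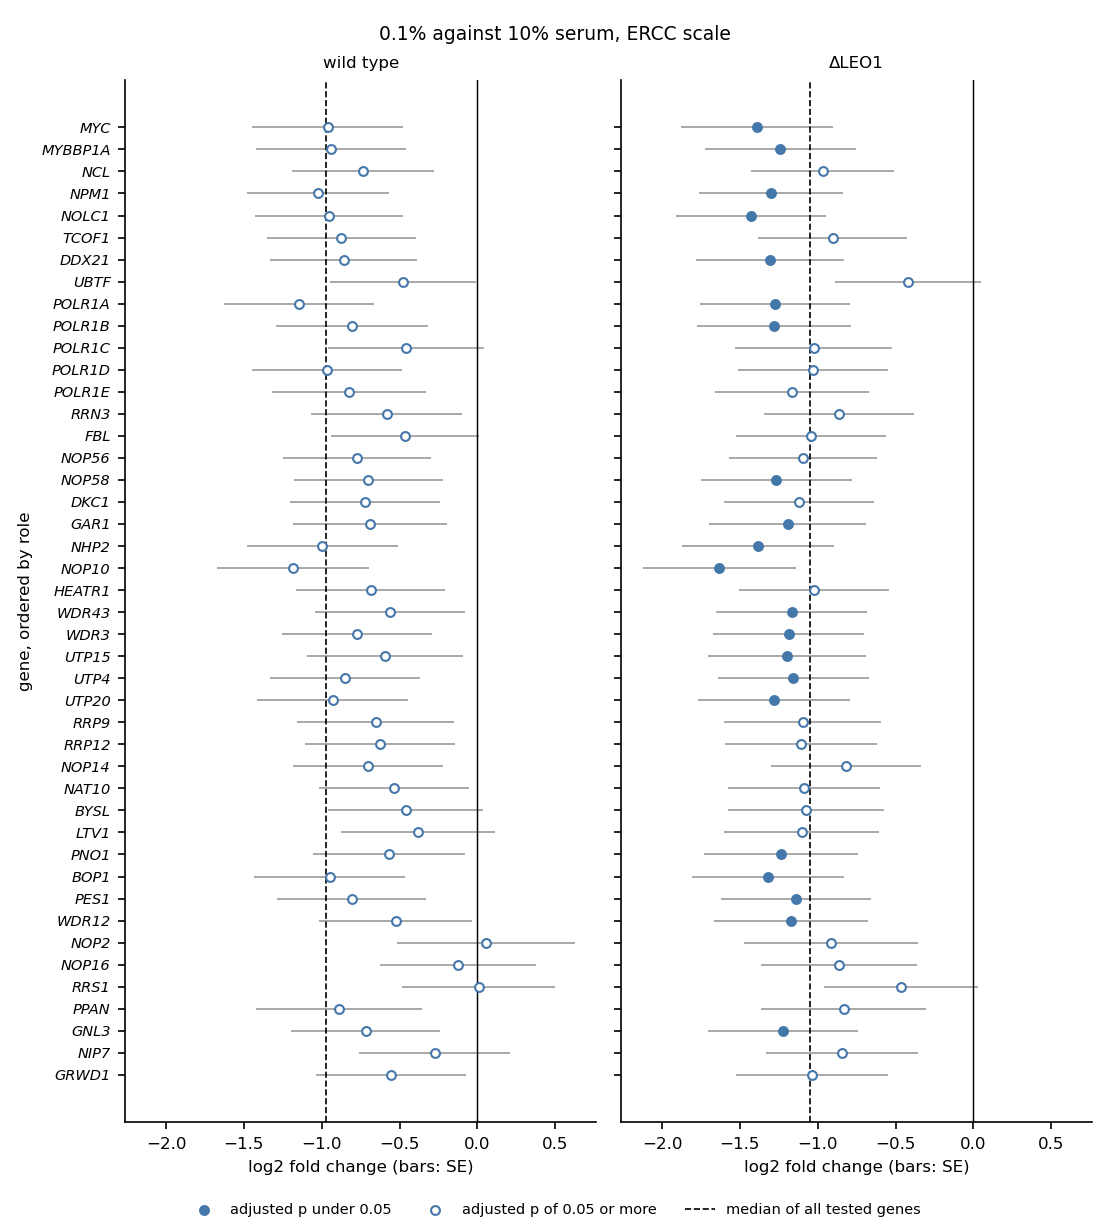
Log2 fold change of 0.1% against 10% serum for each of the 44 genes on the ERCC scale, in wild-type (left) and ΔLEO1 cells (right). Points, bars and filling are as in the plot of genotypes, and the dashed line marks the median of all tested genes, -0.97 and -1.05. Most wild-type points lie to the right of that line and none is filled, while 21 points are filled in ΔLEO1 cells.

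MYC had 44.2, 43.4 and 53.7 CPM in wild-type cells in 10% serum, 48.8, 46.5 and 43.2 CPM in wild-type cells in 0.1% serum, 53.9, 53.2 and 51.9 CPM in ΔLEO1 cells in 10% serum and 44.8, 36.2 and 42.8 CPM in ΔLEO1 cells in 0.1% serum. The ΔLEO1 groups did not overlap, and the wild-type groups did. In ERCC-scaled counts it had 2670.1, 2173 and 1766 in the first group, 1154, 1431 and 808 in the second, 4087, 3006 and 2590.3 in the third, and 1133, 539.6 and 2029 in the fourth. On this scale MYC was lower in 0.1% serum without overlap in wild-type cells (log2 -0.96 ± 0.48, adjusted p = 0.0954) and in ΔLEO1 cells (-1.39 ± 0.49, adjusted p = 0.0269), the latter lost without library 4, 5, 10 or 11. Relative to the other genes its change was -0.03 ± 0.11 in wild-type cells (adjusted p = 0.860) and -0.36 ± 0.11 in ΔLEO1 cells (adjusted p = 0.0257), the latter lost without library 4, 5 or 11. The difference between these responses was -0.33 ± 0.15 (adjusted p = 0.351), and -0.53 without libraries 3, 6, 9 and 12 (adjusted p = 0.00579). The latter fit has 2 libraries in each group and was added after the data were seen. In it 8.45% of all tested genes were lower and 15.4% higher in the interaction. The genotypes differed in MYC by 0.17 ± 0.11 (adjusted p = 0.222) with 10% serum. With 0.1% serum the difference was -0.16 ± 0.11 (adjusted p = 0.272).

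**Figure D4:**
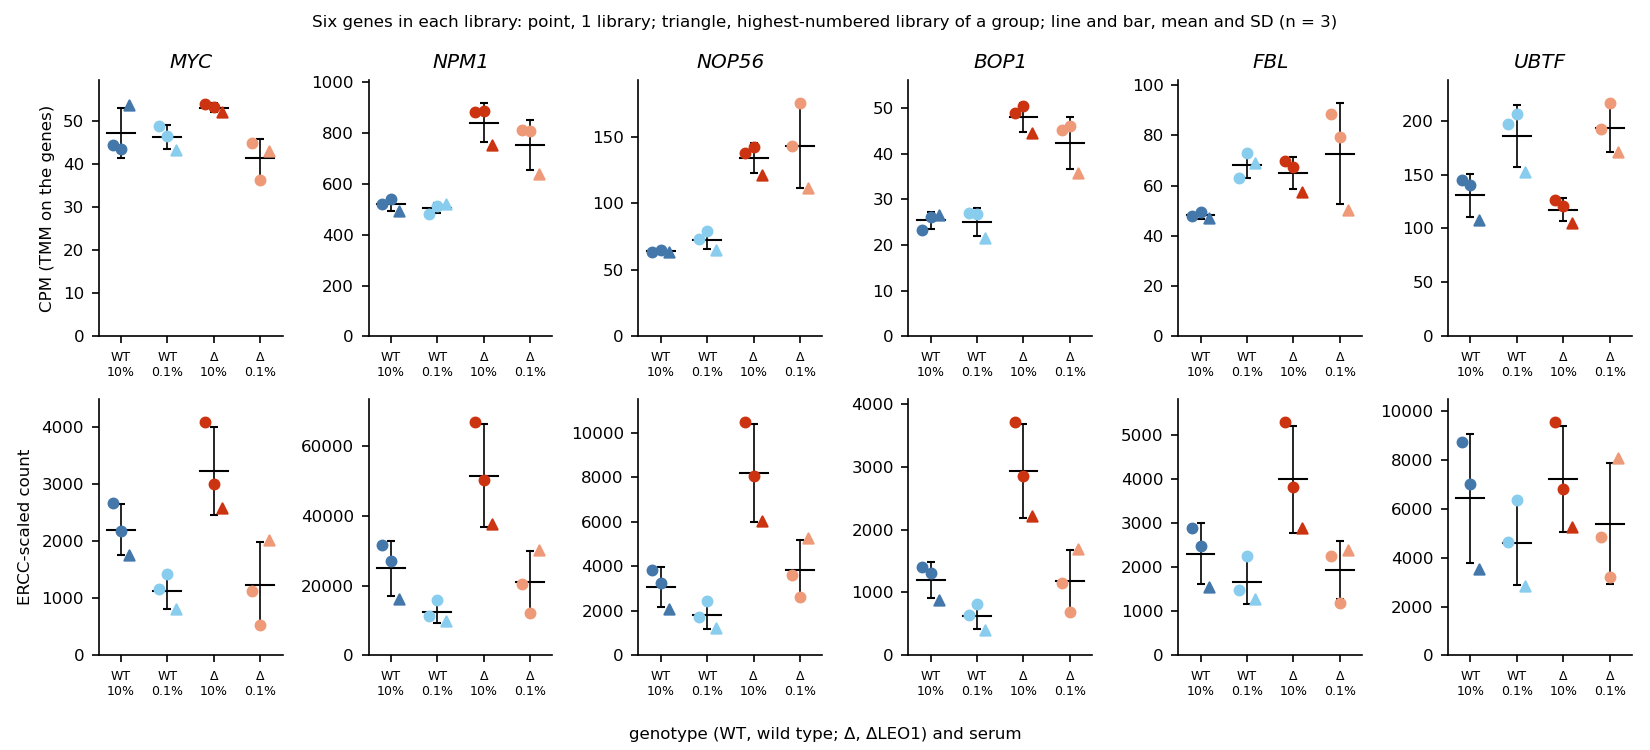
MYC, NPM1, NOP56, BOP1, FBL and UBTF in each of the 12 libraries, by group, in CPM (top) and in ERCC-scaled counts (bottom), with the mean and SD of each group (n = 3) as a line and bar. NPM1, NOP56 and BOP1 separate by genotype in CPM, UBTF separates by serum, and MYC stays between 36.2 and 53.9 CPM.

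Whether the response to serum differed between genotypes was tested as an interaction. No member passed on the ERCC scale, against 0.0604% of all tested genes lower and 0.113% higher, or on the gene scale, against 0.453% and 1.55%. Before adjustment 0 members had a p under 0.05 on the ERCC scale and 2, MYC and WDR12, on the gene scale, while DESeq2 and the likelihood ratio test called 0. The fold changes were negative for 42 members on the ERCC scale, with a median of -0.45 beside -0.07 for all tested genes, and for 39 on the gene scale, with a median of -0.21 beside 0.02. NOP2 (-0.97 ± 0.80) and NOP16 (-0.74 ± 0.71) had the smallest p on the ERCC scale, and the adjusted p of both was 1.00. NOP16, a nucleolar protein, had 9.21, 8.16 and 12.1 CPM against 15.8, 21.2 and 12.1 CPM in wild-type cells, and 15.4, 15.2 and 16.1 against 25.5, 27.2 and 10.7 CPM in ΔLEO1 cells. Library 9 thus lay within the range of its genotype in 10% serum, and library 12 below that of its own. Without libraries 3, 6, 9 and 12, 18 members were lower in the interaction on the gene scale, against 8.45% of tested genes, and 0 were higher, against 15.4%. That gene-scale fit was added after the data were seen and rests on 2 libraries in each group.

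**Figure D5:**
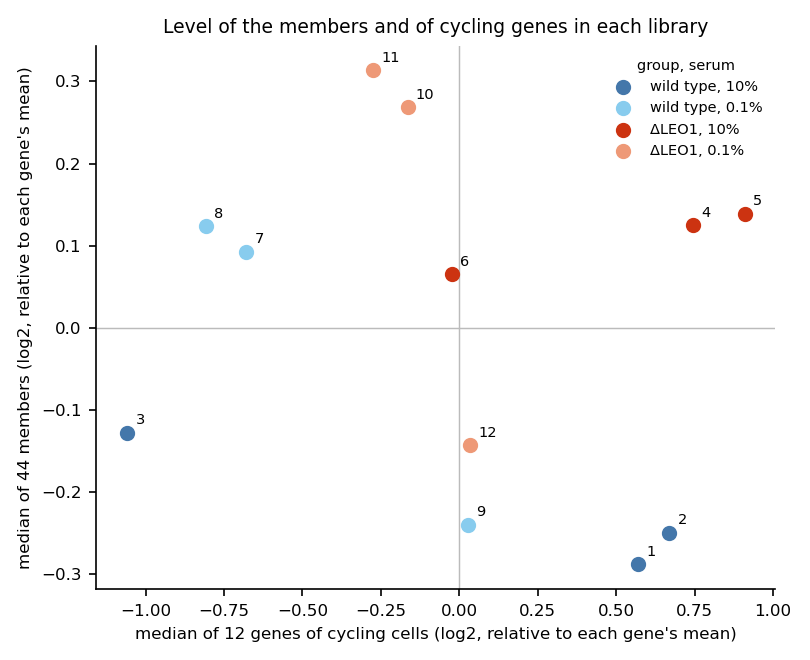
Median of the 44 genes (vertical axis) against the median of 12 genes of cycling cells (horizontal axis) in each of the 12 libraries. Both were computed as described in the text for the genes of cycling cells, on a log2 scale less each gene's mean over the 12 libraries. The wild-type libraries lie between -0.29 and 0.12 on the vertical axis and the ΔLEO1 libraries between -0.14 and 0.31, and library 3 lies farthest left.

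Within groups, libraries 9 and 12 had lower levels of the members on the gene scale than the other libraries of their groups. The member median there was 0.09 and 0.12 in libraries 7 and 8 and -0.24 in library 9. It was 0.27 and 0.31 in libraries 10 and 11 and -0.14 in library 12. In 10% serum it was -0.29, -0.25 and -0.13 in the wild-type libraries and 0.12, 0.14 and 0.07 in the ΔLEO1 libraries, which do not overlap. On the ERCC scale the member median was -0.51 and -0.11 in libraries 7 and 8 and -1.20 in library 9. Library 12 was instead the highest of its group on that scale, at 0.24 against -0.23 and -0.96 in libraries 10 and 11. The 12 genes of cycling cells were not called for ΔLEO1 against wild type in either serum on either scale, and were all lower in 0.1% serum in both genotypes on the ERCC scale. Their part in the members' differences was not tested.

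A wider list of 135 other tested genes of ribosome biogenesis was set beside the members. In 10% serum 59 of the 135 were higher in ΔLEO1 cells on the gene scale and 1 lower, against 17.9% and 21.4% of all tested genes, with a median of 0.32. In 0.1% serum 28 were higher and 2 lower, against 15.1% and 17.3%, with a median of 0.18. By ERCC counts all 135 fold changes were positive in 10% serum, with a median of 0.67, though only BRIX1, a factor of the large subunit, passed (1.505), against 3.81% of all tested genes called higher. In response to serum 8 (5.93%) fell in wild-type cells on the ERCC scale, against 27.0% of all tested genes, and 62 (45.9%) in ΔLEO1 cells, against 36.4%. On the gene scale 29 rose and 4 fell in wild-type cells, against 15.5% and 16.1%, and 10 rose and 12 fell in ΔLEO1 cells, against 15.5% and 12.1%. POLR1G, a subunit of RNA polymerase I, had the largest gene-scale difference between genotypes in 0.1% serum (0.99). Of the genes of the MYC network, which includes its partners, rivals and regulators, 12 were tested. In 10% serum 1 was higher and 2 were lower in ΔLEO1 cells on the gene scale, against 17.9% and 21.4% of all tested genes. By ERCC counts 4 (33.3%) fell in each genotype in 0.1% serum, against 27.0% in wild-type and 36.4% in ΔLEO1 cells, and PIM1 rose in ΔLEO1 cells (1.27). The comparisons of genotype and serum share libraries, so their counts are not independent of each other.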

How the data were processed

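Poly(A) RNA of 12 libraries had been sequenced. Per the labels and the paper's methods, the authors aligned paired reads with STAR (2.7.10a in the submitters' processing notes, another version in the paper) to the human genome with the ERCC sequences and counted exonic reads with featureCounts 1.5.1. They deposited raw counts for 60671 genes and 92 ERCC transcripts. The annotation release and strand setting are not given in the sources used here.

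Genes above 1 CPM in at least 3 libraries entered edgeR 4.0.16 (R 4.3.3), with two-sided quasi-likelihood tests in 1 fit of all 12 libraries and 4 groups, with Benjamini-Hochberg adjustment over 13236 genes. The library size was the ERCC total times its TMM factor (ERCC scale). TMM on the genes gave the gene scale. ERCC-scaled counts are counts divided by the relative size of the ERCC library. The members, the lists, the rule for genes shown in full (regulators, enzymes and scaffolds of each step and the called members with the largest fold changes) and the tests were chosen with earlier results of these data known. Alternatives were the likelihood ratio test, DESeq2 1.42.0, gene-based factors, no filter and each library left out. Leaving out libraries 3, 6, 9 and 12 was also run. Gene-scale counts under these alternatives were added after the data were seen. Exon overlaps and positions came from GENCODE on GRCh38. The tests were checked on simulated data in which each gene was drawn independently. That check does not cover a library that stands apart as a whole, as libraries 3, 6, 9 and 12 did. The lowest count of a member in a library was 29 for NOP2, 111 for PPAN and 311 for NOP16, and counts cover counting error only.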

Additional observations from a re-analysis of the deposited data

Results flagged for a closer look

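WDR12, a subunit of the PeBoW complex of large subunit assembly, is given because every wild-type library in 0.1% serum lay above, and every ΔLEO1 library in 0.1% serum below, those of its genotype in 10% serum on the gene scale. It had 17.7, 17.2 and 18.7 CPM in wild-type cells in 10% serum and 24.6, 27.3 and 18.7 CPM in 0.1% serum, where the lowest library was still just above the highest of the former group. In ΔLEO1 cells it had 24.7, 24.3 and 24.1 CPM in 10% serum and 22.9, 23.9 and 21.97 CPM in 0.1% serum, all lower. The rise in wild-type cells passed edgeR's quasi-likelihood test (0.40, adjusted p = 0.0275), and the difference of -0.089 in ΔLEO1 cells did not (adjusted p = 0.615). The difference between the responses was -0.486 on the log2 scale, and it did not pass in edgeR's quasi-likelihood test (adjusted p = 0.209). Without libraries 3, 6, 9 and 12 it was -0.64 (adjusted p = 0.000961). That fit has 2 libraries in each group and was added after the data were seen. In it 8.45% of all tested genes were lower and 15.4% higher in the interaction.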

How the results depend on the processing

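Percentages in this paragraph are the shares of all genes tested in the same fit. On the ERCC scale 2 members fell in wild-type cells in 0.1% serum by the likelihood ratio test, against 36.1%. DESeq2 gave 7, against 43.5%, and leaving out libraries 3, 6, 9 and 12 gave 8, against 63.1%. In ΔLEO1 cells 29 fell by the likelihood ratio test (47.2%), 35 by DESeq2 (52.6%), 2 without the filter (7.84%) and 43 without those libraries (91.3%). Members higher in ΔLEO1 cells in 10% serum numbered 2 by DESeq2 (4.38%), 0 without the filter (2.89%) and 2 without those libraries (5.47%). With TMM or DESeq2 factors on the genes, 7 or 6 rose in wild-type cells, 2 fell and 2 rose in ΔLEO1 cells by either, 15 were higher in ΔLEO1 cells in 10% serum by either, and 9 were higher and 1 lower in 0.1% serum by either. On the gene scale without libraries 3, 6, 9 and 12, 34 members were higher in the wild-type serum response (26.9%). In the ΔLEO1 serum response 6 were lower (27.6%) and 14 higher (28.1%). Between genotypes in 10% serum 1 was lower (31.9%) and 37 were higher (30.3%). Between genotypes in 0.1% serum 5 were lower (29%) and 21 higher (30.5%). In the interaction 18 were lower (8.45%).

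On the ERCC scale, leaving out each library gave 0 to 13 members that fell in wild-type cells, against 5.63% to 61.2% of all tested genes. In ΔLEO1 cells 0 to 41 fell, against 3.06% to 87.4%. In 10% serum 0 to 4 were higher in ΔLEO1 cells, against 2.46% to 7.28%, and in 0.1% serum 0 to 1, against 2.08% to 8.62%. On the gene scale it gave 0 to 1 lower and 0 to 15 higher in wild-type cells, against 10.7% to 18.6% and 10.1% to 19.0%. In ΔLEO1 cells 1 to 3 were lower and 1 to 7 higher, against 7.67% to 15.1% and 10.5% to 18%. Between genotypes in 10% serum 9 to 21 were higher, against 12.8% to 21.2%. Between genotypes in 0.1% serum 0 to 3 were lower and 3 to 17 higher, against 13.7% to 19.8% and 11.1% to 18.1%. In the interaction 0 to 1 were lower, against 0.212% to 0.771%.

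With TMM or DESeq2 factors on the genes in place of the ERCC counts, the sign turned for these log2 fold changes. In the wild-type serum response they became 0.23 and 0.23 for NCL, 0.50 and 0.50 for FBL, 0.23 and 0.23 for DKC1, 0.14 and 0.14 for POLR1B, 0.50 and 0.51 for UBTF, 0.36 and 0.36 for RRN3, 0.39 and 0.39 for NAT10, 0.18 and 0.18 for NOP56 and 0.73 and 0.73 for NOP16. In the ΔLEO1 serum response they became 0.20 and 0.20 for NCL, 0.16 and 0.16 for FBL, 0.065 and 0.064 for DKC1, 0.72 and 0.72 for UBTF, 0.27 and 0.27 for RRN3, 0.046 and 0.045 for NAT10, 0.24 and 0.24 for NOP2, 0.10 and 0.10 for NOP56 and 0.44 and 0.44 for NOP16. Between genotypes they became -0.16 and -0.14 for UBTF in 10% serum, and -0.16 and -0.15 for MYC, -0.049 and -0.043 for POLR1A and -0.025 and -0.018 for POLR1B in 0.1% serum. This follows from the shift of all genes on the ERCC scale. Without libraries 3, 6, 9 and 12 the ERCC-scale difference between genotypes in 0.1% serum turned to -0.63 for MYC, -0.12 for FBL, -0.084 for DKC1, -0.72 for POLR1A, -0.52 for POLR1B, -0.45 for UBTF, -0.14 for RRN3, -0.64 for NOP2, -0.21 for NOP10 and -0.073 for NOLC1, that of NOP16 in the wild-type serum response to 0.088 and that of UBTF in the interaction to -0.50. The cause was not tested.

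Single libraries left out turned the sign between genotypes in 0.1% serum for MYC (-0.44 to 0.48), POLR1A (-0.49 to 0.65), POLR1B (-0.30 to 0.51), UBTF (-0.19 to 0.52), NAT10 (-0.43 to 0.26), NOP2 (-0.27 to 0.74) and NOP10 (-0.028 to 0.57), and for UBTF in 10% serum (-0.13 to 0.47). They also did so for NOP2 (-0.56 to 0.46) and NOP16 (-0.60 to 0.18) in the wild-type serum response and for NCL (-0.53 to 0.047), POLR1A (-0.91 to 0.24), UBTF (-0.36 to 0.36) and RRN3 (-0.62 to 0.015) in the interaction. None of these was called on the ERCC scale with all libraries. NOP56, BOP1 and NPM1 were higher in ΔLEO1 cells in both sera on the gene scale in all 12 fits that each left out 1 library. No paired analysis was possible because the libraries are numbered 1 to 12 and the groups share no number. NOP2, with 29 to 80 counts per library, had the fewest counts of the members. Of its exon bases, 54.4% lie in another gene on the same strand.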
